A study of Mus musculus with 24 samples.

Results

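The response of cultured mouse pancreatic cancer cells to the return of p53 was compared between 2 populations. Both were edited in Pcyt2, and the second also carried a Pcyt2 cDNA. The difference of the 2 responses is described gene by gene. The members are the 8 libraries of Pcyt2-edited cells, chosen by their labels out of 24 libraries in the series, and all genes of their table that were expressed. That left 14916 genes tested of 55401 listed. The cells are KPsh cells, a mouse pancreatic ductal adenocarcinoma (PDAC) line in which doxycycline induces an shRNA against Trp53, so that Trp53 is silenced on the drug and comes back when it is withdrawn. All 4 groups carry an edit by a guide against Pcyt2 (sgPcyt2) and were kept for 6 days off doxycycline or on it at 1 µg/ml, with 2 libraries per group. The first pair of groups is sgPcyt2 off doxycycline and sgPcyt2 on doxycycline. The second pair, called complemented cells below, is sgPcyt2 with a guide-resistant Pcyt2 cDNA off doxycycline and on doxycycline. Whether the edited cells were a clone or a pool, and whether the 2 libraries of a group came from separate cultures, is not given in the sources used here, so the p-values reflect spread between libraries that may be technical only. The drug and p53 changed together in both populations, and an effect of doxycycline itself cannot be told apart from one of p53. No group was unedited, so an effect of Pcyt2 loss cannot be told apart from one of expressing the cDNA.

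Pcyt2 encodes the enzyme that couples phosphoethanolamine to CTP in the ethanolamine branch of the Kennedy pathway, which builds phosphatidylethanolamine, a main phospholipid of cell membranes. Cells can also obtain phosphatidylethanolamine by decarboxylating phosphatidylserine or from lipids taken up. p53, the product of Trp53, is a tumour suppressor that binds DNA and turns on genes of cell-cycle arrest, apoptosis, DNA repair and metabolism. Among its targets, p21 (Cdkn1a) holds back the kinases that release the E2F and DREAM target genes, so that genes of DNA replication and mitosis fall when p53 is active. In pancreatic cancer cells, restored p53 is known to slow growth and to push cells towards a more differentiated state.

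The 8 libraries held 13801514.5 to 17127760.5 counts each, and levels are given as CPM, counts scaled to a common library total with normalization factors of 0.983 to 1.014. Libraries of the same group differed by more than sampling noise in all 4 groups, with a chi-square per degree of freedom of 1.98 to 5.43. A single abundant transcript, CT010467.1, varied within groups. It held 2.07 and 1.32% of counts in sgPcyt2 cells off doxycycline and 0.622 and 1.36% on it. In complemented cells it held 0.659 and 0.223% off doxycycline and 0.198 and 0.348% on it. Under both conditions both sgPcyt2 libraries thus held more of it than both complemented ones. Its part in the chi-square was not separated. Markers of duct epithelium summed to 10500 to 11300 CPM in sgPcyt2 cells off doxycycline, 6660 to 6860 on it, 11500 to 11600 in complemented cells off doxycycline and 7530 to 7560 on it. All 20 markers of acinar and endocrine cells stayed below 1 CPM in every library. So did 13 of 14 fibroblast markers, with Col1a2, Col3a1, Dcn and Lum at 0 throughout. Of 20 markers of immune cells, 16 stayed below 1 CPM, and of 12 markers of endothelial cells 9 did. Counts from the mitochondrial genome made up 3.31 to 3.5% of the libraries off doxycycline and 1.86 to 2.0% of those on it, in both populations. Reads were counted without regard to strand, and 10.2 to 29.0% of the exon bases of Rbl2, Ccnd1, Lpcat3, Cept1, Agpat5, Fdps, Dusp5, Spry1, Mmp28, Tapbp and Ctsl overlap exons of another annotated gene, so their values are less certain.

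Trp53 RNA itself responded less in sgPcyt2 cells. Trp53 (ENSMUSG00000059552.13, chr11:69580359-69591872, plus strand, mm10) stood at 42.1 and 41.7 CPM in sgPcyt2 cells off doxycycline and 22.7 and 19.2 CPM on it, and at 97.2 and 86.8 CPM in complemented cells off doxycycline and 19.3 and 20.2 CPM on it. The 2 populations started at like levels on the drug, and off it the sgPcyt2 libraries lay below both complemented ones. The response was 1.00 ± 0.08 on the log2 scale in sgPcyt2 cells and 2.21 ± 0.07 in complemented cells (± SE of the fit), and their difference was -1.21 ± 0.12 (edgeR quasi-likelihood test, adjusted p = 9.7e-12). The part of this Trp53 difference in the results that follow was not tested. Pcyt2 (ENSMUSG00000025137.15, chr11:120610087-120617936, minus strand) was counted at 21.3 and 17.7 CPM in sgPcyt2 cells off doxycycline and 28.6 and 28.5 CPM on it, against 2202 and 2193 CPM in complemented cells off doxycycline and 2636 and 2588 CPM on it. The complemented values include transcripts of the cDNA, and edited transcripts can persist as RNA, so these values check the labels but do not measure the edit. Its difference of responses was -0.30 ± 0.08 (adjusted p = 0.0052), which was -0.46 without the first sgPcyt2 library off doxycycline, and lost its call without the second, at -0.20 (adjusted p = 0.0969).

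A difference of responses is positive where a gene rose more, or fell less, in sgPcyt2 cells than in complemented cells after withdrawal. It passed an adjusted p under 0.05 for 3759 genes, 25.2% of all tested, with 1909 higher (12.8%) and 1850 lower (12.4%). Over all genes the median difference was 0.016 on the log2 scale, and among called genes its median size was 0.48. Differences of at least 1 on the log2 scale were called higher for 438 genes (2.94%) and lower for 294 (1.97%). In most called genes, 2378 of 3759, both populations responded in the same direction and differed in size, with the larger response in sgPcyt2 cells for 1550 and in complemented cells for 828. The responses were called in opposite directions for 279 genes, of which 123 rose and 156 fell in sgPcyt2 cells. The 2 populations lay farther apart off doxycycline than on it for 2420 of the called genes, and farther apart on it for 1339. Each response on its own was broad, with 76.3% of genes called in sgPcyt2 cells and 73.5% in complemented cells, and the SD of the response over all genes was 1.435 in sgPcyt2 cells and 1.255 in complemented cells.

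**Figure D1:**
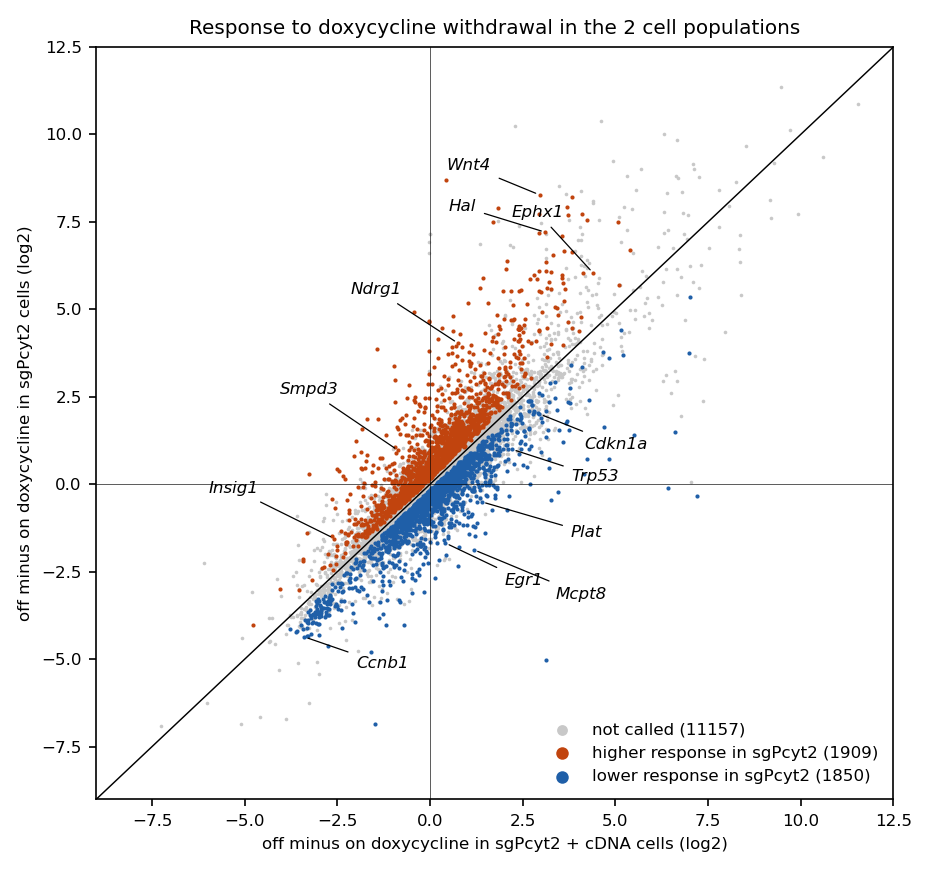
Response of each of 14916 genes to doxycycline withdrawal (log2, off minus on doxycycline) in sgPcyt2 cells on the vertical axis and in complemented cells on the horizontal axis; the diagonal marks equal responses. Genes above it and called (1909) responded higher in sgPcyt2 cells, and genes below it and called (1850) lower. Wnt4, Hal and Ndrg1 stand far above the diagonal, and Egr1, Mcpt8 and Plat far below it.

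The canonical p53 targets did not share a direction. Of 50 listed, 48 were tested. The difference of responses was called lower for 14 of them (29.2%) and higher for 7 (14.6%), beside 12.4% and 12.8% of all genes, and their median was -0.077. The lower group includes genes of arrest, apoptosis and feedback. Cdkn1a (chr17:29093781-29100727, plus strand), which encodes the cyclin-dependent kinase inhibitor p21, stood at 291 and 302 CPM in sgPcyt2 cells off doxycycline and 72.7 and 74.6 CPM on it, and at 383 and 392 CPM in complemented cells off doxycycline and 49.2 and 50.8 CPM on it. It rose in both populations. On the drug it was higher in both sgPcyt2 libraries than in the complemented ones, and off the drug lower, which gave a difference of -0.94 ± 0.07 (adjusted p = 6.3e-16). Mdm2, the ubiquitin ligase that degrades p53, reached 518 and 546 CPM in sgPcyt2 cells off doxycycline against 783 and 781 CPM in complemented cells off it, with 124 and 128 CPM in sgPcyt2 cells and 110.0 and 115 CPM in complemented cells on the drug, a difference of -0.71 ± 0.06 (adjusted p = 2.2e-13). The difference was -1.20 ± 0.15 (adjusted p = 2.1e-08) for Pmaip1, which encodes the pro-apoptotic protein Noxa, and -0.87 ± 0.14 (adjusted p = 1.6e-06) for the antiproliferative gene Btg2. Ccng1, cyclin G1, was not called, at -0.07 ± 0.06 (adjusted p = 0.37). Its levels were 1267 and 1276 CPM in sgPcyt2 cells off doxycycline and 269 and 294 CPM on it, and 1627 and 1639.6 CPM in complemented cells off doxycycline and 347 and 339.6 CPM on it.

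Ephx1, an epoxide hydrolase of xenobiotic metabolism, was the p53 target with the highest called difference. The gene also belongs to the list of the NRF2 antioxidant response, described below. It stood at 418 and 407 CPM in sgPcyt2 cells off doxycycline and 6.32 and 6.18 CPM on it, and at 349.6 and 359 CPM in complemented cells off doxycycline and 16.3 and 17.2 CPM on it. Off the drug the sgPcyt2 libraries were the higher ones and on it the lower ones, a difference of 1.64 ± 0.11 (adjusted p = 1.8e-16). Among CDK inhibitors and D-type cyclins, 3 of 14 tested (21.4%) were higher and 4 (28.6%) lower, beside 12.8% and 12.4% of all genes. Rbl2, a pocket protein of the retinoblastoma family, differed by 0.62 ± 0.10 (adjusted p = 6.1e-06), and Cdkn1b (p27) by 0.57 ± 0.08 (adjusted p = 5.2e-07). Ccnd1, cyclin D1, differed by -0.53 ± 0.06 (adjusted p = 4.9e-10). Of 22 apoptosis genes tested, 2 (9.09%) were higher and 7 (31.8%) lower.

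**Figure D2:**
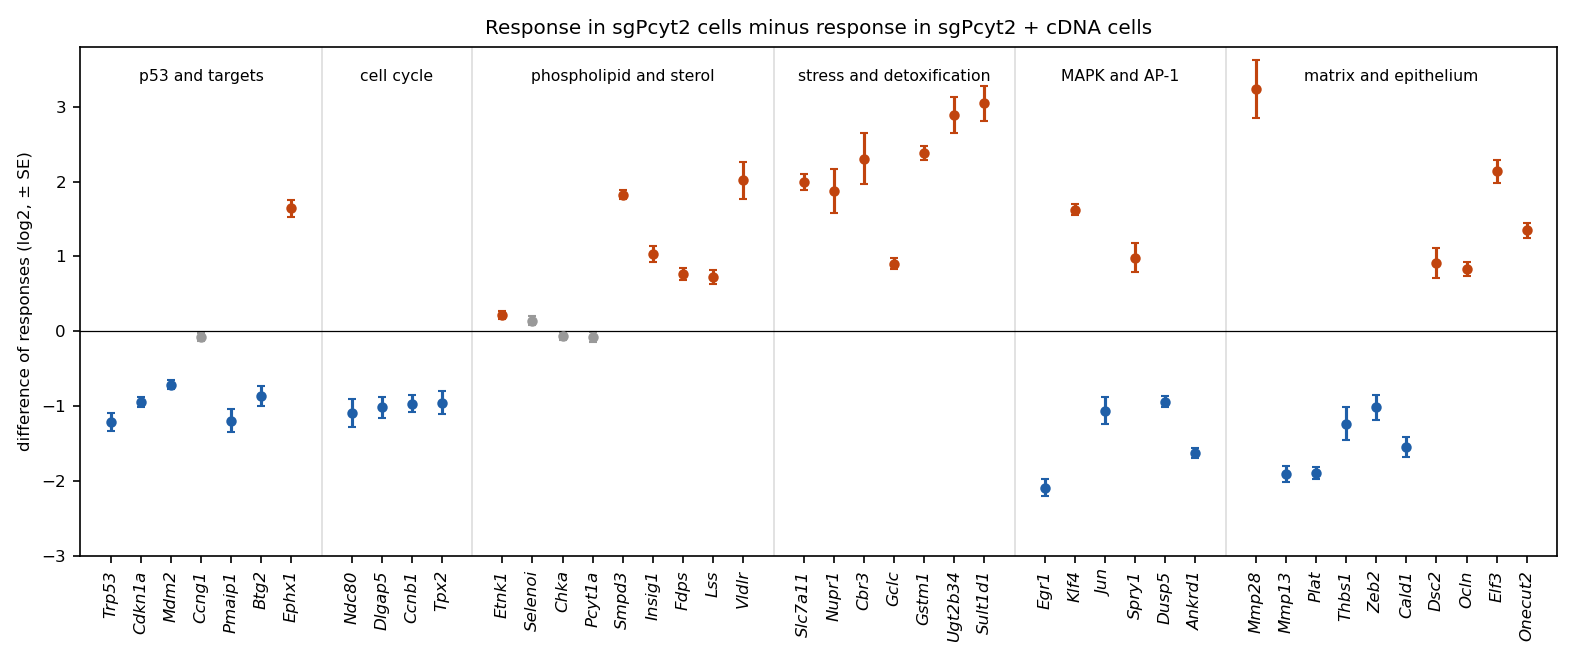
Difference of responses (response in sgPcyt2 cells minus response in complemented cells, log2, ± SE of the fit) for genes named in the text, by group. Points in red or blue passed an adjusted p under 0.05 and grey points did not. Cdkn1a at -0.94 and Ndc80 at -1.10 lie below 0, and Insig1 at 1.03 and Gstm1 at 2.38 above it.

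Genes of mitosis fell further in sgPcyt2 cells. All 50 listed G2/M genes were tested; 39 (78%) were called lower and none higher, beside 12.4% and 12.8% of all genes, with 1 higher without the second sgPcyt2 or the first complemented library off doxycycline, and their median difference was -0.563. Every one of the 50 had a negative fitted response in both populations, with a median of -3.574 in sgPcyt2 cells and -2.938 in complemented cells. The median level of a G2/M gene was 10.71 CPM in sgPcyt2 cells off doxycycline and 142.0 on it, and 18.84 CPM in complemented cells off doxycycline and 148.5 on it. In bulk RNA, fewer cells of a type and less RNA per cell cannot be told apart. Ccnb1 (chr13:100778650-100786570, minus strand), cyclin B1, which drives entry into mitosis, stood at 8.67 and 11.3 CPM in sgPcyt2 cells off doxycycline and 199.6 and 210.1 CPM on it, and at 23.3 and 20.4 CPM in complemented cells off doxycycline and 231 and 229 CPM on it. Both sgPcyt2 libraries off the drug lay below both complemented ones, and the groups on the drug did not overlap either. The difference was -0.97 ± 0.11 (adjusted p = 3.9e-09) on the log2 scale. It depends on the scale: in CPM, Ccnb1 dropped by a larger amount in complemented cells, and the difference of the 2 drops was 12.9 CPM. Of the 39 called G2/M genes, 25 had the same sign in CPM and 14 the other.

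The kinetochore gene Ndc80 stood at 3.67 and 3.81 CPM in sgPcyt2 cells off doxycycline and 43.3 and 45.8 CPM on it, and at 6.60 and 8.59 CPM in complemented cells off doxycycline and 43.8 and 40.96 CPM on it. The off-drug groups did not overlap and the on-drug groups did, and the difference was -1.10 ± 0.19 (adjusted p = 7.7e-06). The spindle genes Dlgap5 and Tpx2 differed by -1.02 ± 0.14 (adjusted p = 5.3e-08) and -0.95 ± 0.16 (adjusted p = 0.0011). Genes of DNA replication and S phase moved less. Of 46 tested, 15 (32.6%) were lower and 1 (2.17%) higher, beside 12.4% and 12.8% of all genes. Their median was -0.168. The lower count was 5 without the first and 23 without the second sgPcyt2 library off doxycycline, 9 without the first complemented library off it, and 7 in DESeq2. E2f2, a transcription factor of S-phase genes, differed by -0.69 ± 0.18 (adjusted p = 0.0027), with 4.64 CPM as the difference of the drops, in the other direction. Ccne1, cyclin E1, differed by -0.63 ± 0.16 (adjusted p = 0.0026). The replication-licensing gene Cdc6 differed by -0.59 ± 0.16 (adjusted p = 0.0032). All 3 calls were lost without the first sgPcyt2 library off doxycycline, at adjusted p = 0.0687, 0.0535 and 0.078. Pole2, a subunit of DNA polymerase epsilon, differed by -0.69 ± 0.24 (adjusted p = 0.03) and lost its call in DESeq2 and without the first sgPcyt2 library off doxycycline, the second on it, or the first complemented library off or on it, with adjusted p of up to 0.199.

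**Figure D3:**
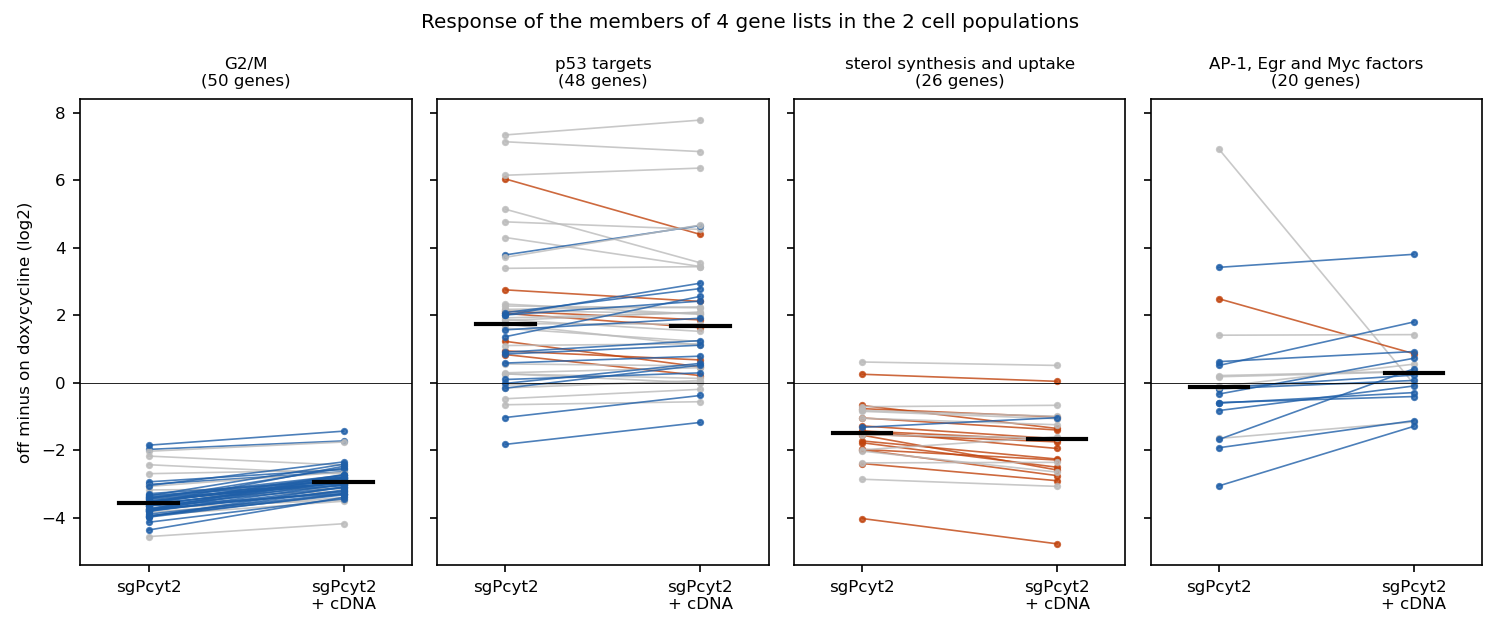
Response to doxycycline withdrawal (log2) of every tested member of 4 gene lists, in sgPcyt2 cells on the left and complemented cells on the right of each panel; a line joins the 2 values of a gene and black bars mark the medians. Lines in red were called higher and in blue called lower in sgPcyt2 cells, and grey lines were not called. The G2/M lines slope upwards from the left, with medians of -3.574 and -2.938.

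The G2/M members moved together, and their promoters are shown for what they share beyond the rule. Many mitotic genes are known to carry CCAAT boxes, bound by NF-Y, and a cell-cycle homology region (CHR) with the letters TTTGAA or TTTAAA, bound by the DREAM and MuvB complexes. In the RefSeq promoter table (GRCm38.p6), 40 of the 50 genes matched, with 42 promoters. Within the 250 bases before the start, CCAAT was found on either strand in 32 of the 42 (76.2%), against 33.8% of all 32851 promoters. TTTGAA was found in 13 (31.0%), against 16%, and TTTNAA, which covers both CHR forms, in 22 (52.4%), against 36.7%. A match is only a match of letters. Of the 42 promoters, 36 belong to members called lower, and 28 of these (77.8%) held CCAAT. The match thus does not set called members apart from the whole list. The stretches of 3 called members with matches, Ccnb1, Ccnb2 and Cdk1, and of Ndc80, the lowest of the list, which has no match, are given 5′ to 3′ on the minus strand with CCAAT and TTTNAA in capitals, both strands searched.
Ccnb1, chr13:100786487-100786736: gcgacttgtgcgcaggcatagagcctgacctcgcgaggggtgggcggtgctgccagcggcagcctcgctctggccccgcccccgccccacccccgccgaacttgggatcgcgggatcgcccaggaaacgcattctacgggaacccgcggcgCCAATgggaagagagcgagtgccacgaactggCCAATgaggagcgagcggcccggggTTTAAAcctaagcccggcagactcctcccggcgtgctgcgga
Ccnb2, chr9:70421555-70421804: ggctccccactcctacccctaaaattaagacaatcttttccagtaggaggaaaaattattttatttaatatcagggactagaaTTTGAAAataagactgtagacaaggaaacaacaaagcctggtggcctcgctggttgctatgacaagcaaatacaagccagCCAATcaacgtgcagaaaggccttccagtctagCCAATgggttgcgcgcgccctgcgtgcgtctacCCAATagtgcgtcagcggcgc
Cdk1, chr10:69352913-69353162: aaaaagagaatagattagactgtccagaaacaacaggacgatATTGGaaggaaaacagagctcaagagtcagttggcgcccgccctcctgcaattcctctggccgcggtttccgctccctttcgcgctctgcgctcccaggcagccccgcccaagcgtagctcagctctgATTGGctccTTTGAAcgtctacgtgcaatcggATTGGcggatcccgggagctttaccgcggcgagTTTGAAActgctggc
Ndc80, chr17:71526858-71527107: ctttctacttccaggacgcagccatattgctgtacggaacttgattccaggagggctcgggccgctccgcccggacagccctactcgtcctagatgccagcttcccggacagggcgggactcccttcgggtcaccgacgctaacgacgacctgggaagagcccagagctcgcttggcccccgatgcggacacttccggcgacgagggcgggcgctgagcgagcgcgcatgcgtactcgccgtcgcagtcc
Ccnb1 held 2 CCAAT and 1 TTTNAA matches, Ccnb2 3 and 2, and Cdk1 3 and 3. In Ccnb2 and in Cdk1, 2 of the TTTNAA matches overlap in 1 stretch, TTTGAAA, read on either strand. Their separate stretches are thus fewer than their matches. Ndc80, with the largest difference in the list, held 0 of either. Other lists, described below, were searched in the same way. The sterol element TCACNCCAC was found in 1 of 21 promoters of sterol genes (4.76%), against 1.05% of all. The antioxidant element TGACNNNGC was found in 24.1% of promoters in the NRF2 list and 14.3% in the glutathione transferase list, against 10.2%. Among promoters of their members called higher the shares were 14.3% and 8.33%.

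The genes that make phosphatidylethanolamine and phosphatidylcholine differed in both directions. On the ethanolamine branch and its side routes, 4 of 15 tested genes (26.7%) were higher and 3 (20%) lower. Over all genes, 12.8% were higher and 12.4% lower. The median of the list was 0.078. The higher count was 2 without either complemented library off doxycycline. Etnk1, ethanolamine kinase, the step before Pcyt2, stood at 369.7 and 358 CPM in sgPcyt2 cells off doxycycline and 210.1 and 217 CPM on it, and at 327 and 332 CPM in complemented cells off doxycycline and 221 and 228 CPM on it. The populations did not overlap off the drug or on it, and the difference was 0.22 ± 0.06 (adjusted p = 0.0026), a call lost without the first complemented library off doxycycline (adjusted p = 0.056). Selenoi, the ethanolamine phosphotransferase that follows Pcyt2, was not called at 0.14 ± 0.06 (adjusted p = 0.1). Neither was Chka, choline kinase alpha, at -0.07 ± 0.06 (adjusted p = 0.42), nor Pcyt1a, the choline counterpart of Pcyt2, at -0.08 ± 0.07 (adjusted p = 0.41). Lpcat3, which puts polyunsaturated fatty acids into lysophospholipids, differed by 0.41 ± 0.08 (adjusted p = 3.2e-05), and the related acyltransferase gene Mboat1 by -0.40 ± 0.06 (adjusted p = 4.7e-07). Cept1, the choline and ethanolamine phosphotransferase, differed by -0.36 ± 0.08 (adjusted p = 0.0007).

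On the choline branch, 2 of 9 tested genes (22.2%) were higher and 3 (33.3%) lower, beside 12.8% and 12.4% of all genes. Chpt1, the choline phosphotransferase, stood at 29.9 and 32.4 CPM in sgPcyt2 cells off doxycycline and 8.28 and 7.61 CPM on it, and at 17.6 and 22.8 CPM in complemented cells off doxycycline and 14.5 and 12.9 CPM on it. It was higher in sgPcyt2 cells off the drug and lower on it, a difference of 1.40 ± 0.17 (adjusted p = 5.3e-09). The choline transporter genes went apart, with 0.61 ± 0.08 (adjusted p = 1.4e-08) for Slc44a1 and -0.36 ± 0.08 (adjusted p = 0.0003) for Slc44a2. Of 29 tested genes that release phospholipid headgroups, 6 (20.7%) were higher and 4 (13.8%) lower. Smpd3 (chr8:106252548-106337988, minus strand), neutral sphingomyelinase 2, which frees phosphocholine from sphingomyelin, stood at 245 and 239 CPM in sgPcyt2 cells off doxycycline and 123 and 125 CPM on it, and at 97.6 and 97.5 CPM in complemented cells off doxycycline and 182 and 172 CPM on it. It rose by 0.97 ± 0.04 in sgPcyt2 cells and fell in complemented cells, with a response of -0.86 ± 0.05, and the difference was 1.83 ± 0.06 (adjusted p = 2.2e-26). Pnpla7, a lysophospholipase, differed by 1.07 ± 0.16 (adjusted p = 9.1e-07). Faah, which hydrolyses ethanolamides, differed by 0.89 ± 0.14 (adjusted p = 2.3e-06), and Gdpd1, a lysophospholipase D, by -0.61 ± 0.16 (adjusted p = 0.0029). In glycerolipid synthesis, 6 of 20 were higher, among them the triglyceride-forming Dgat2 at 1.33 ± 0.27 (adjusted p = 0.00011) and the lipid phosphatase gene Plpp3 at 0.86 ± 0.14 (adjusted p = 4.6e-06). Another 5 were lower, among them Pgs1, of cardiolipin synthesis, at -0.56 ± 0.09 (adjusted p = 1.5e-06) and the acyltransferase gene Agpat5 at -0.51 ± 0.07 (adjusted p = 1.4e-07), with 3 lower without the first complemented library on doxycycline.

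Sterol genes fell less in sgPcyt2 cells. Of 26 tested, 15 (57.7%) were called higher and 1 (3.85%) lower, beside 12.8% and 12.4% of all genes, with a median difference of 0.257. The higher count was 9 without the second sgPcyt2 library off doxycycline and 8 without the second complemented library off it. The median response was -1.474 in sgPcyt2 cells and -1.677 in complemented cells. Insig1 (chr5:28071363-28078662, plus strand), a sterol sensor that holds SREBP in the endoplasmic reticulum and is itself an SREBP target, stood at 29.5 and 27.3 CPM in sgPcyt2 cells off doxycycline and 79.6 and 87.3 CPM on it, and at 17.3 and 16.6 CPM in complemented cells off doxycycline and 104 and 98.8 CPM on it. It was higher in sgPcyt2 cells off the drug and lower on it, without overlap, and differed by 1.03 ± 0.10 (adjusted p = 4.4e-11). The farnesyl diphosphate synthase gene Fdps differed by 0.76 ± 0.09 (adjusted p = 8.9e-10) and the lanosterol synthase gene Lss by 0.73 ± 0.09 (adjusted p = 1.7e-08). Fatty acid synthesis and desaturation had 7 of 20 higher and 2 lower. The lower count was 1 in DESeq2, without robust estimation and with the replicate block. It also moved, up or down, when most single libraries were left out. Scd1, the stearoyl-CoA desaturase, stood at 133 and 122 CPM in sgPcyt2 cells off doxycycline and 131 and 141 CPM on it, and at 66.7 and 67.1 CPM in complemented cells off doxycycline and 175 and 160.5 CPM on it. Its level hardly moved in sgPcyt2 cells, where the response was not called, and fell in complemented cells, a difference of 1.23 ± 0.07 (adjusted p = 3.6e-18). The difference was 1.16 ± 0.08 for Acsl3 and 1.15 ± 0.22 for Acsl1, which both activate fatty acids, and 1.05 ± 0.13 for the desaturase gene Fads2 (adjusted p = 3.1e-15, 5e-05 and 2.7e-08). Among 13 lipid uptake genes tested, 4 were higher and 2 lower, with 2 higher without the first sgPcyt2 library off doxycycline and 1 lower without the second complemented library on it. Vldlr, a lipoprotein receptor, reached 68.8 and 57.7 CPM in sgPcyt2 cells off doxycycline, against 26.4 and 26.4 CPM in complemented cells off it, and differed by 2.02 ± 0.25 (adjusted p = 4.5e-08). The receptor gene Lrp1 differed by 1.43 ± 0.12 (adjusted p = 3.4e-13) and the lysosomal sterol carrier gene Npc2 by -0.40 ± 0.06 (adjusted p = 2e-06).

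Stress and detoxification genes were shifted towards the higher side. The counts of each list stand beside 12.8% higher and 12.4% lower over all genes. Among genes of ATF4 and the integrated stress response, 16 of 37 (43.2%) were higher and 5 (13.5%) lower, with 10 higher without the second sgPcyt2 library off doxycycline, and 3 lower without the first and in DESeq2. Among genes of the NRF2 antioxidant response, 13 of 28 (46.4%) were higher and 2 (7.14%) lower. Slc7a11 (chr3:50364938-50443611, minus strand), the cystine transporter that stands in both lists, was at 375 and 325 CPM in sgPcyt2 cells off doxycycline and 53.01 and 52.5 CPM on it, and at 128 and 148 CPM in complemented cells off doxycycline and 84.3 and 82.4 CPM on it. It rose in both populations. The sgPcyt2 libraries were lower on the drug and higher off it, and it differed by 2.00 ± 0.11 (adjusted p = 1.5e-09). The stress gene Nupr1 differed by 1.88 ± 0.29 (adjusted p = 1.9e-06). Slc1a4, a transporter of neutral amino acids, rose in sgPcyt2 cells (0.69 ± 0.07) and fell in complemented cells (-0.60 ± 0.07), a difference of 1.28 ± 0.09 (adjusted p = 3.2e-15). Of the NRF2 list, the carbonyl reductase gene Cbr3 differed by 2.31 ± 0.34 (adjusted p = 4.9e-07) and Gclc, the catalytic subunit of glutathione synthesis, by 0.90 ± 0.07 (adjusted p = 3.1e-13). By contrast, genes of protein folding in the endoplasmic reticulum had 3 of 28 higher and 2 lower, with 5 higher without the second sgPcyt2 library on doxycycline, 4 lower without the second off it and 5 lower without the low-count filter.

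Of 20 glutathione transferase genes tested, 10 (50%) were higher and none lower, beside 12.8% and 12.4% of all genes. Gstm1 (chr3:108012255-108017973, minus strand) was at 372 and 337 CPM in sgPcyt2 cells off doxycycline and 24.6 and 24.6 CPM on it, and at 106 and 108 CPM in complemented cells off doxycycline and 35.6 and 41.3 CPM on it. The groups did not overlap under either condition, and the difference was 2.38 ± 0.09 (adjusted p = 1.9e-23). Gsta4 differed by 1.38 ± 0.07 (adjusted p = 5.9e-21) and Mgst2 by 0.88 ± 0.13 (adjusted p = 6.2e-07). Gsta1 differed by 1.92 ± 0.17 (adjusted p = 1.6e-12), with levels of 192 and 185 CPM in sgPcyt2 cells off doxycycline and 3.29 and 2.38 CPM on it, and 226 and 237 CPM in complemented cells off doxycycline and 11.3 and 14.8 CPM on it. In CPM its rise was smaller in sgPcyt2 cells, by -32.9 CPM, so its direction depends on the scale. These genes lie in families of close copies, and counts could be split between them.

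The same side held many genes of conjugating enzymes and transporters, in lists drawn up after these values were seen. Over all genes, 12.8% were higher and 12.4% lower. Of 14 UDP-glucuronosyltransferase genes tested, which attach glucuronic acid to lipophilic compounds, 13 were higher and none lower. All 9 Ugt1a members lay between 1.90 and 2.15, but they share their last exons, and 82.7% of the exon bases of Ugt1a1 are shared, so their counts are not independent. The 4 Ugt2b members are separate but related genes. Ugt2b34 stood at 882 and 739.9 CPM in sgPcyt2 cells off doxycycline and 21.2 and 25.3 CPM on it, and at 198 and 205 CPM in complemented cells off doxycycline and 38.00 and 46.6 CPM on it. Its difference was 2.89 ± 0.24 (adjusted p = 0.0013). Of 14 cytochrome P450 genes tested, of 81 listed, 8 were higher and 1 lower, with 2.80 ± 0.27 (adjusted p = 1.7e-11) for Cyp2c65 and 2.67 ± 0.23 (adjusted p = 7.9e-13) for Cyp4b1, and with 5 higher where at least 1 CPM in all 8 libraries was required. Of 5 cytosolic sulfotransferase genes tested, 2 were higher and none lower, or 1 higher under the same requirement, and Sult1d1 differed by 3.05 ± 0.23 (adjusted p = 3.3e-14). Of 6 ABCC transporter genes tested, 3 were higher and 1 lower. Abcc2, which exports conjugates from cells, differed by 3.55 ± 0.41 (adjusted p = 1.3e-09), and Abcc1, the lower one, by -0.59 ± 0.07 (adjusted p = 1.4e-09). Of 14 PPAR targets, 8 were higher and 2 lower. The pantetheinase gene Vnn1 differed by 2.55 ± 0.12 (adjusted p = 4.4e-21) and Cpt1a, which brings fatty acids into mitochondria, by 1.00 ± 0.06 (adjusted p = 5.4e-18), while Angptl4, an inhibitor of lipoprotein lipase, differed by -1.37 ± 0.07 (adjusted p = 1.3e-20). Of 18 tested genes known from liver and intestine, 12 were higher and none lower, or 7 higher where at least 1 CPM in all 8 libraries was required, among them the protease gene Tmprss2 at 2.46 ± 0.13 (adjusted p = 2.6e-20). Aqp8, a water channel, stood at 40.5 and 40.2 CPM in sgPcyt2 cells off doxycycline and 6.70 and 8.02 CPM on it, and at 4.84 and 4.48 CPM in complemented cells off doxycycline and 5.44 and 4.13 CPM on it. Only the sgPcyt2 response of Aqp8 was called, and the difference was 2.48 ± 0.22 (adjusted p = 8.7e-13).

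The 12 highest differences among called genes with a mean of at least 5 CPM over the 8 libraries belong mostly to genes nearly silent on the drug in sgPcyt2 cells. All 12 were highest in sgPcyt2 cells off doxycycline, and most reached that mean through this group. Their low level on the drug follows in part from this choice and is no separate result. Wnt4 (chr4:137277489-137299726, plus strand), a secreted Wnt ligand, stood at 46.9 and 39.1 CPM in sgPcyt2 cells off doxycycline and 0.0632 and 0.204 CPM on it, and at 4.71 and 5.04 CPM in complemented cells off doxycycline and 0.662 and 0.59 CPM on it. The on-drug level in sgPcyt2 cells rests on 4 counts in both libraries together. Off over on was 329 in sgPcyt2 cells (95% exact interval 128 to 1210) and 7.84 in complemented cells (4.85 to 13.4), intervals that cover counting error only. The difference was 5.32 ± 0.67 (adjusted p = 1.6e-08). Hal (chr10:93488768-93519304, plus strand), histidine ammonia-lyase, the first enzyme of histidine breakdown, stood at 47.1 and 42.2 CPM in sgPcyt2 cells off doxycycline and 0.379 and 0.204 CPM on it, and at 7.26 and 8.65 CPM in complemented cells off doxycycline and 0.735 and 1.06 CPM on it. Its difference was 4.10 ± 0.51 (adjusted p = 1.3e-08), from 9 counts in sgPcyt2 cells on the drug. Adamts15, a secreted protease that cuts proteoglycans, differed by 3.50 ± 0.34 (adjusted p = 2.2e-11) and Ugt2b36 by 4.12 ± 0.53 (adjusted p = 2.9e-08). The sgPcyt2 level of Ugt2b36 on the drug rests on 7 counts, and off over on was 74.4 (35.8 to 186).

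The differences of 4 others of the 12 each lost the call when a complemented library was left out. Nepn, a small leucine-rich secreted protein, differed by 4.29 ± 0.79 (adjusted p = 0.019), and lost its call without any 1 of the 4 complemented libraries, with adjusted p of up to 0.136. Lbp, the lipopolysaccharide-binding protein, differed by 3.99 ± 1.06 (adjusted p = 0.004), with adjusted p = 0.205 without the first complemented library on doxycycline. Depp1, a FOXO target, and the P450 gene Cyp4a12a differed by 3.54 ± 0.90 and 3.32 ± 0.94 (adjusted p = 0.0027 and 0.006), with adjusted p = 0.65 and 0.214 without the second, where the difference of Depp1 was 1.66. For Lbp and Cyp4a12a the sgPcyt2 level on the drug rests on 3 counts each, and off over on was 227 (77.3 to 1100) and 205 (69.9 to 998). Nhs (chrX:161833296-162159730, minus strand), which is known to act on actin and cell shape, moved in opposite directions. It stood at 22.4 and 17.7 CPM in sgPcyt2 cells off doxycycline and 3.16 and 4.76 CPM on it, and at 2.03 and 3.36 CPM in complemented cells off doxycycline and 4.70 and 5.67 CPM on it, a difference of 3.30 ± 0.29 (adjusted p = 1e-11). The other 2 of the 12 carry provisional symbols in the annotation used, and their levels are not described. The lower one is annotated as protein-coding. For the higher one, annotated as antisense, 100% of the exon bases overlap Ndrg1 on the opposite strand, so its counts can be those of Ndrg1. The hypoxia list, which holds Ndrg1, had 38.9% of its tested members higher and 11.1% lower, beside 12.8% and 12.4% of all genes. Ndrg1 (chr15:66929318-66969640, minus strand), a gene induced by hypoxia and differentiation, was better counted than most of the 12. It stood at 166 and 147 CPM in sgPcyt2 cells off doxycycline and 9.16 and 9.99 CPM on it, and at 32.2 and 29.7 CPM in complemented cells off doxycycline and 18.01 and 18.6 CPM on it. Its difference was 3.27 ± 0.13 (adjusted p = 2.1e-24). Of 18 hypoxia genes tested, 7 were higher and 2 lower, with 1 lower in DESeq2 and with the replicate block. The lower count also fell when some single libraries were left out. Vegfa, the endothelial growth factor, of the same list, differed by 0.89 ± 0.11 (adjusted p = 1.3e-08).

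**Figure D4:**
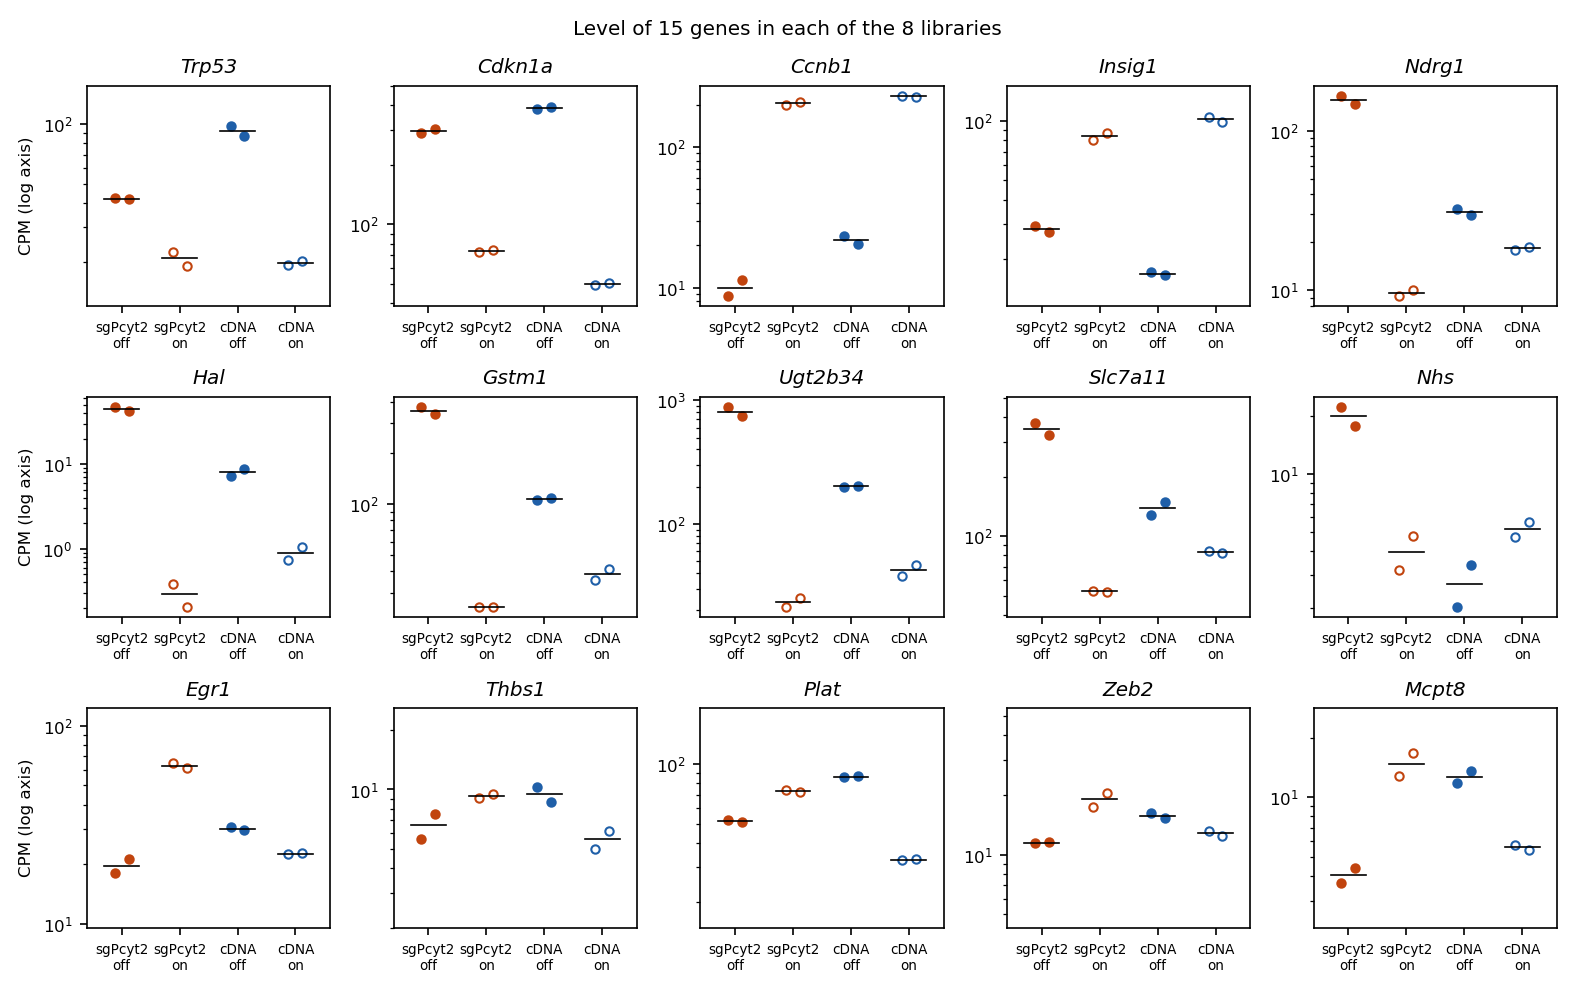
Level of 15 genes in each of the 8 libraries (CPM, log axis), with sgPcyt2 cells in red and complemented cells (cDNA) in blue, filled off and open on doxycycline; each point is 1 library and bars mark the mean of 2. Ndrg1 reached 166 and 147 CPM in sgPcyt2 cells off doxycycline against 32.2 and 29.7 CPM in complemented cells off it, and Egr1 was highest in sgPcyt2 cells on doxycycline, at 64.6 and 61.1 CPM.

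Early growth-response genes and the feedback genes of RAS-MAPK signalling lay on the lower side. Of 20 AP-1, Egr and Myc factors tested, 12 (60%) were lower and 1 (5%) higher, beside 12.4% and 12.8% of all genes. Their median was -0.345. Of 20 RAS-MAPK feedback genes, 12 (60%) were lower and 3 (15%) higher, with a median of -0.355. Egr1 (chr18:34859823-34864984, plus strand), an immediate early transcription factor, stood at 18.1 and 21.3 CPM in sgPcyt2 cells off doxycycline and 64.6 and 61.1 CPM on it, and at 30.7 and 29.6 CPM in complemented cells off doxycycline and 22.5 and 22.8 CPM on it. It fell in sgPcyt2 cells and rose in complemented cells, and the widest gap between the populations was on the drug. The difference was -2.09 ± 0.12 (adjusted p = 2.3e-19). Jun, of the AP-1 factor, also fell in sgPcyt2 cells (-0.33 ± 0.13) and rose in complemented cells (0.73 ± 0.13), a difference of -1.06 ± 0.19 (adjusted p = 1.3e-05). Egr3 rose in both and differed by -1.29 ± 0.16 (adjusted p = 6.9e-09). Klf4, a factor of epithelial differentiation and the only higher call of the list, was at 182 and 188 CPM in sgPcyt2 cells off doxycycline and 34.1 and 31.7 CPM on it, and at 146 and 154 CPM in complemented cells off doxycycline and 84.2 and 80.5 CPM on it, a difference of 1.63 ± 0.08 (adjusted p = 8.2e-22). Of the feedback genes, the ERK phosphatase gene Dusp5 differed by -0.94 ± 0.07 (adjusted p = 3.8e-14), the immediate early gene Ier3 by -0.90 ± 0.10 (adjusted p = 1.5e-09) and Spred3, a RAS inhibitor, by -0.94 ± 0.15 (adjusted p = 1.7e-06). Spry1, another RAS-pathway inhibitor, went the other way at 0.98 ± 0.20 (adjusted p = 0.00011). Upstream, 5 of 11 EGF receptors and ligands (45.5%) were lower and 3 (27.3%) higher. Egfr differed by -0.85 ± 0.11 (adjusted p = 1.9e-08) and its ligand gene Hbegf by -0.72 ± 0.07 (adjusted p = 6.5e-12), while the receptor gene Erbb3 differed by 1.70 ± 0.14 (adjusted p = 1.9e-13).

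Lists of YAP and TEAD targets and of SRF targets and the contractile cytoskeleton, drawn up after the values were seen, were also mostly on the lower side. The first had 11 of 18 (61.1%) lower and 1 (5.56%) higher, and the second 12 of 17 (70.6%) lower and 1 (5.88%) higher. The median difference was small, at -0.27 in the first list and -0.323 in the second. Members ranged from -1.629 to 1.081 in the first and from -1.551 to 0.183 in the second. Over all genes, 12.4% were lower and 12.8% higher. Ankrd1, a YAP target, stood at 137 and 156 CPM in sgPcyt2 cells off doxycycline and 417 and 412 CPM on it, and at 273 and 256 CPM in complemented cells off doxycycline and 248 and 238 CPM on it. It fell in sgPcyt2 cells (-1.51 ± 0.05) and rose slightly in complemented cells (0.12 ± 0.04), a difference of -1.63 ± 0.06 (adjusted p = 3.8e-23). Ccn1, another YAP target, differed by -1.60 ± 0.24 (adjusted p = 0.0079), a call lost without the first complemented library off doxycycline or without the second on it, with adjusted p of up to 0.0511.

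Mesenchymal and matrix genes were shifted lower and epithelial genes higher. Over all genes, 12.4% were lower and 12.8% higher, shares that also stand beside the counts of proteases and epithelial genes below. Of 14 mesenchymal genes tested, 9 (64.3%) were lower and 1 (7.14%) higher, with a median of -0.69. The summed fibroblast markers moved with them, at 6.94 to 8.14 CPM in sgPcyt2 cells off doxycycline, 9.35 to 9.54 on it, 3.94 to 4.84 in complemented cells off doxycycline and 2.74 to 2.82 on it. Most of this sum is Pdgfra, at up to 8.68 CPM, and 7 of the 14 markers were at 0 in every library. Cald1, the actin-binding caldesmon, was at 33.5 and 30.7 CPM in sgPcyt2 cells off doxycycline and 17.8 and 17.8 CPM on it, and at 53.5 and 52.8 CPM in complemented cells off doxycycline and 10.4 and 9.80 CPM on it, a difference of -1.55 ± 0.13 (adjusted p = 2.2e-13). The collagen crosslinker gene Loxl2 differed by -1.46 ± 0.20 (adjusted p = 6.5e-08). Zeb2, a repressor of epithelial genes, fell in sgPcyt2 cells (-0.72 ± 0.11) and rose in complemented cells (0.30 ± 0.11), a difference of -1.02 ± 0.16 (adjusted p = 2e-06). Sparc, a matrix protein, differed by -1.06 ± 0.26 (adjusted p = 0.015), a call lost in DESeq2 (adjusted p = 0.0667) and without any of the 4 libraries on doxycycline, with adjusted p of up to 0.123. Of 23 collagens, laminins and integrins, 10 (43.5%) were lower and 5 (21.7%) higher. Thbs1, thrombospondin 1, was at 5.60 and 7.56 CPM in sgPcyt2 cells off doxycycline and 9.10 and 9.45 CPM on it, and at 10.3 and 8.65 CPM in complemented cells off doxycycline and 5.0 and 6.20 CPM on it, a difference of -1.24 ± 0.22 (adjusted p = 1.9e-05). The integrin subunit genes Itga3 and Itga2 differed by -0.84 ± 0.06 and -0.75 ± 0.06 (adjusted p = 1.7e-15 and 6.9e-15).

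Of 15 matrix proteases and inhibitors tested, 8 were lower and 4 higher, with 2 higher without the second complemented library on doxycycline. Plat (chr8:22757747-22782844, plus strand), tissue plasminogen activator, was at 51.99 and 51.01 CPM in sgPcyt2 cells off doxycycline and 73.7 and 72.2 CPM on it, and at 85.7 and 86.9 CPM in complemented cells off doxycycline and 32.6 and 33.1 CPM on it. On the drug the sgPcyt2 libraries were higher and off it lower, and the difference was -1.89 ± 0.09 (adjusted p = 1.7e-22). The collagenase gene Mmp13 was at 29.5 and 29.5 CPM in sgPcyt2 cells off doxycycline and 445 and 465 CPM on it, and at 15.8 and 19.1 CPM in complemented cells off doxycycline and 66.1 and 76.6 CPM on it. It fell in both populations, the sgPcyt2 libraries were far higher on the drug, and it differed by -1.91 ± 0.11 (adjusted p = 6.3e-18). Mmp28 differed in the other direction, at 3.24 ± 0.39 (adjusted p = 4.4e-09). Mmp15 differed by 1.31 ± 0.27 (adjusted p = 0.00028), a call lost without the second complemented library on doxycycline, at 0.67 (adjusted p = 0.165).

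Of 20 keratin and epithelial junction genes tested, 9 (45%) were higher and 2 (10%) lower. Cdh1, E-cadherin, stood at 1294 and 1275 CPM in sgPcyt2 cells off doxycycline and 401 and 415 CPM on it, and at 1031 and 1044 CPM in complemented cells off doxycycline and 512 and 505 CPM on it, a difference of 0.63 ± 0.05 (adjusted p = 2.4e-13). The tight-junction gene Ocln and the desmosome gene Dsc2 differed by 0.83 ± 0.09 and 0.91 ± 0.20 (adjusted p = 5.4e-10 and 0.00042), and Cldn2, a pore-forming claudin, by -0.78 ± 0.07 (adjusted p = 1.4e-12). Of 19 transcription factors of pancreas and foregut, 10 (52.6%) were higher and 3 (15.8%) lower. Elf3 (chr1:135253575-135258568, minus strand), an epithelial ETS factor, was at 101 and 84.99 CPM in sgPcyt2 cells off doxycycline and 6.76 and 7.0 CPM on it, and at 44.01 and 43.6 CPM in complemented cells off doxycycline and 15.95 and 12.9 CPM on it. The difference was 2.14 ± 0.15 (adjusted p = 9.1e-15). Onecut2 and Sox9, both factors of the pancreatic duct or its progenitors, differed by 1.35 ± 0.10 and 1.12 ± 0.18 (adjusted p = 2.4e-07 and 1.9e-06). The duct markers as a list had 4 of 10 tested higher and 1 lower. None of the 8 tested mucins and trefoil factors was called with all libraries in edgeR, and 1 was called higher without the second sgPcyt2 library off or on doxycycline. The lowest adjusted p with all libraries was 0.11, for Muc4, picked for that after its values were seen.

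**Figure D5:**
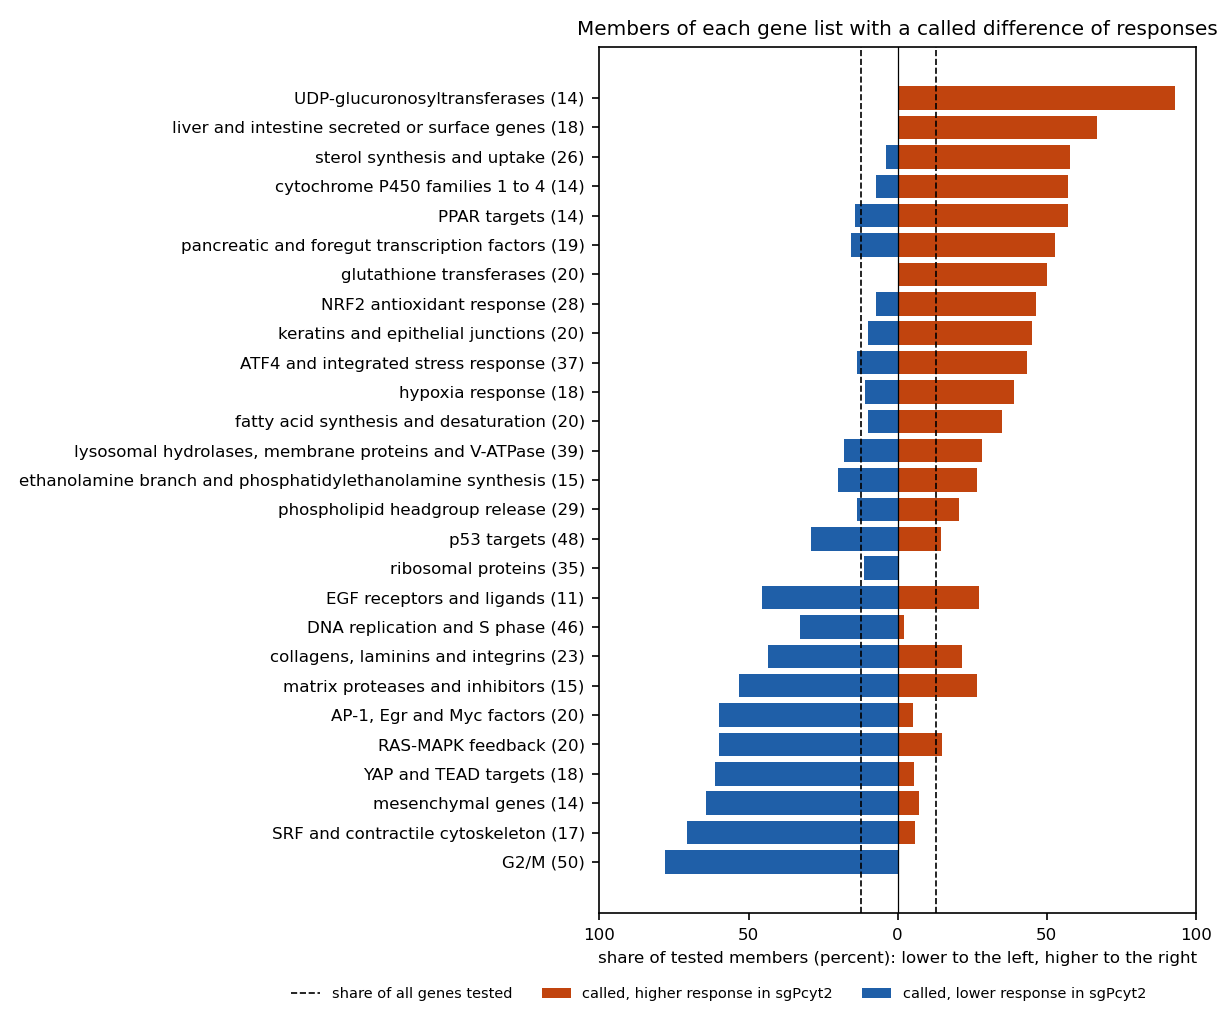
Share of the tested members of each gene list (number tested in brackets) with a difference of responses called higher in sgPcyt2 cells (red, to the right) or lower (blue, to the left), in percent; dashed lines mark 12.8% and 12.4%, the shares of all genes tested. The lists of UDP-glucuronosyltransferases, liver and intestine genes, cytochrome P450, PPAR, YAP and SRF genes were drawn up after the values were seen. G2/M genes reach 78% on the lower side and sterol genes 57.7% on the higher side.

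The lowest differences among called genes with a mean of at least 5 CPM include several genes at low to moderate levels whose names point to other tissues. Mcpt8 (chr14:56082219-56085273, minus strand), a protease gene named after mast cells, stood at 3.67 and 4.38 CPM in sgPcyt2 cells off doxycycline and 12.8 and 16.7 CPM on it, and at 11.8 and 13.5 CPM in complemented cells off doxycycline and 5.73 and 5.43 CPM on it. It fell in sgPcyt2 cells and rose in complemented cells, a difference of -3.06 ± 0.22 (adjusted p = 1.3e-15). The granzyme gene Gzme, from the same cluster of related proteases, differed by -2.22 ± 0.27 (adjusted p = 8.5e-09). The summed immune markers ran at 36.9 to 39.6 CPM in sgPcyt2 cells off doxycycline and 25.3 to 25.6 on it. In complemented cells they ran at 35.7 to 38.2 CPM off doxycycline and 19.6 to 23.5 on it. The highest single marker was Cd14, at up to 30.4 CPM. Of the 20 markers 10, Cd3e and Tyrobp among them, were at 0 in every library. Lgr6, a receptor for R-spondins, was at 9.07 and 10.3 CPM in sgPcyt2 cells off doxycycline and 6.89 and 7.07 CPM on it, and at 19.7 and 21.4 CPM in complemented cells off doxycycline and 2.06 and 2.36 CPM on it. It rose in both and far more in complemented cells, a difference of -2.73 ± 0.22 (adjusted p = 1.1e-13). Trp53inp2, which takes part in autophagy, differed by -1.93 ± 0.14 (adjusted p = 1.6e-15), and the vomeronasal receptor gene Vmn2r79, of a large family of close copies, by -1.91 ± 0.17 (adjusted p = 2e-12). The actin-binding gene Aif1l was at 2.47 and 2.68 CPM in sgPcyt2 cells off doxycycline and 10.3 and 13.1 CPM on it, and at 15.2 and 14.1 CPM in complemented cells off doxycycline and 12.1 and 12.5 CPM on it, a difference of -2.43 ± 0.22 (adjusted p = 1.1e-12). It fell in sgPcyt2 cells, while the response in complemented cells was not called. Anks1b, Gnb4, Dclk2 and Sh2d1b1 lay between -2.11 and -1.94, all called.

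Inflammatory mediators went both ways, with 6 of 13 tested chemokines, cytokines and complement genes lower and 4 higher, the higher ones being 2 without the low-count filter and without the second sgPcyt2 or the second complemented library off doxycycline. Over all genes, 12.4% were lower and 12.8% higher. Lif, a cytokine of the interleukin 6 family, fell in sgPcyt2 cells (-0.33 ± 0.06) and rose in complemented cells (0.63 ± 0.07), a difference of -0.97 ± 0.09 (adjusted p = 1.6e-11). Il1rn, the interleukin 1 receptor antagonist, did the same, with a difference of -0.81 ± 0.07 (adjusted p = 4.1e-12). Ptgs2, cyclooxygenase 2, was at 27.3 and 29.3 CPM in sgPcyt2 cells off doxycycline and 291 and 313 CPM on it, and at 35.7 and 38.6 CPM in complemented cells off doxycycline and 159.6 and 162 CPM on it. Most of its gap lay on the drug, and the difference was -1.30 ± 0.08 (adjusted p = 3.8e-17). Genes of MHC class I presentation had 2 of 9 higher, or 1 in DESeq2, without the low-count filter and without the first sgPcyt2 library off doxycycline, the second on it or the second complemented library off it, with 1.02 ± 0.13 (adjusted p = 2.8e-08) for Tapbp, the peptide-loading chaperone, and the interferon list had 1 of 17 higher, a call lost in DESeq2, without the low-count filter and without 4 of the 8 libraries in turn, and none lower.

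Lists of organelles and central metabolism also held calls in both directions. Of 39 lysosomal genes, 11 (28.2%) were higher and 7 (17.9%) lower, beside 12.8% and 12.4% of all genes. Ctsl, the protease cathepsin L, was at 436 and 449 CPM in sgPcyt2 cells off doxycycline and 305 and 307 CPM on it, and at 655 and 669 CPM in complemented cells off doxycycline and 186 and 189.5 CPM on it, a difference of -1.28 ± 0.06 (adjusted p = 4.5e-23). Tfeb, a master factor of lysosomal genes, differed by 0.78 ± 0.18 (adjusted p = 0.001). Autophagy genes had 5 of 27 higher and 5 lower, with -0.81 ± 0.11 (adjusted p = 2e-07) for Wipi1. The higher count was 2 or 3 in DESeq2, without the low-count filter and in 6 of 8 fits that left out 1 library. The TCA cycle had 9 of 34 higher (26.5%) and 1 lower, or 3 lower without the second sgPcyt2 library off doxycycline, with 0.94 ± 0.08 (adjusted p = 1.9e-13) for Idh1, the cytosolic isocitrate dehydrogenase. Glycolysis had 9 of 26 higher (34.6%) and 5 lower (19.2%), with 3 lower without the first complemented library off doxycycline or without either on it. Pfkl, liver phosphofructokinase, rose in sgPcyt2 cells (0.50 ± 0.05) and fell in complemented cells (-0.29 ± 0.05), a difference of 0.79 ± 0.07 (adjusted p = 2.2e-12). Of 13 genes encoded in mitochondria 3 were higher and none lower, with 5 higher without the second sgPcyt2 library on doxycycline and up to 2 lower across the alternatives. Of 30 nuclear respiratory chain subunits 7 were higher and 2 lower, a higher count that was 1 in DESeq2, 3 without the low-count filter and 2 to 4 without any 1 of the complemented libraries or the second sgPcyt2 library off or on doxycycline. Without that sgPcyt2 library off doxycycline 3 were higher and 6 lower, so that the balance of this list turned over. Of 35 ribosomal protein genes, none was higher and 4 (11.4%) were lower. The lower count was 14 without the second sgPcyt2 library off doxycycline, 0 without the first complemented library on it and 8 without the low-count filter, and 2 genes were higher without the first sgPcyt2 library on it.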

How the data were processed

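RNA was extracted with TRIzol and made into stranded poly(A) libraries, per the labels' protocols. The authors deposited expected counts per gene and library, in steps of 0.5 and not normalized; 17.6 to 18.3% of a library's values over all listed genes were not whole. Per the submitters' processing notes STAR 2.6.1c, HOMER and the build mm10 were used. Per the file headers, HOMER counted both strands over exons of GENCODE vM25 with 1 transcript per gene, so reads from genes that overlap were not separated, whatever their strand. Columns of complemented cells carry the name of wild-type Pcyt2 and were matched by elimination.

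Counts were rounded to whole numbers, with 0.5 rounded up, which changed no total by over 0.0362%. Genes were kept with edgeR's filterByExpr and scaled with TMM factors. The difference of responses, (sgPcyt2 off minus on) minus (complemented off minus on), was a contrast over 4 group means in edgeR's robust quasi-likelihood fit (edgeR 4.0.16, limma 3.58.1, R 4.3.3), with 4 residual degrees of freedom and a biological coefficient of variation of 0.0333. Benjamini-Hochberg adjustment ran over the 14916 genes tested, with calls under 0.05, and standard errors are the log2 value over the root of the F statistic. Each response was tested in the same fit. DESeq2 1.42.0, other factors, filters, rounding, a replicate block and the removal of each library were alternatives. The scripts were tested on simulated counts. Exact intervals of count ratios are conditional binomial (95%).

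The comparison and its gene lists were chosen with earlier results of these data known, and 11 of the lists, named as such, after the values were seen. Lists are described by counts and medians, without a test. Named are 9 fixed genes, up to 4 called members per list with the largest differences and a mean of at least 5 CPM, and the 12 highest and 12 lowest called genes of that level whose 16 differences from 1 library per group share a sign. Members named from the 11 later lists were picked after their values were seen. Exon overlap used GENCODE vM21 on the same build, and promoters came from RefSeq on GRCm38.p6. Some genes that the naming rule takes are not reported here.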

Additional observations from a re-analysis of the deposited data

Results flagged for a closer look

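Withdrawal of doxycycline moved 279 genes in opposite directions in the 2 populations, each direction called on its own and the difference tested by the same fit (edgeR quasi-likelihood test). Among the genes named above, the following are looked at again because the 2 populations responded in opposite directions. With a rise in sgPcyt2 cells and a fall in complemented cells, the difference was 3.30 for Nhs (responses 2.35 ± 0.17 and -0.95 ± 0.23), 1.83 for Smpd3, 1.28 for Slc1a4 and 0.79 for Pfkl (0.50 ± 0.05 and -0.29 ± 0.05). With a fall in sgPcyt2 cells and a rise in complemented cells, the difference was -3.06 for Mcpt8 (-1.87 ± 0.16 and 1.18 ± 0.15), -2.09 for Egr1 (-1.68 ± 0.08 and 0.41 ± 0.08), -1.95 for Dclk2, -1.89 for Plat (-0.50 ± 0.06 and 1.39 ± 0.06), -1.63 for Ankrd1, -1.24 for Thbs1, -1.06 for Jun, -1.02 for Zeb2, -0.97 for Lif, -0.81 for Il1rn, -0.78 for Cldn2 and -0.75 for Itga2. Groups of 2 libraries are too small to single out a library that stands apart from its group.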

How the results depend on the processing

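The number of called genes was 3759 in the fit reported and between 3565 and 3829 with RLE or upper-quartile factors, without the low-count filter, with at least 1 CPM in all 8 libraries, without robust estimation, with the replicate block and with counts rounded down. DESeq2 called 2426 genes, of which 2418 were among the 3759, with 1130 higher and 1296 lower; the cause was not tested. Leaving out 1 library in turn gave 2978 to 3859 called genes, 1401 to 1805 higher and 1473 to 2206 lower. The share of higher among called genes was 50.8% in the fit reported, 40.7% without the low-count filter, where 28582 genes were tested, and 42.8% without the second sgPcyt2 library off doxycycline. With the replicate block, 3565 genes were called, 1815 higher and 1750 lower. Deviations of same-numbered libraries from their group means correlated at -0.114 to 0.023 over 10726 genes, so the numbers were not taken to pair the libraries, and the block ended no call of a named gene.

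Of 125 named genes with a call, 112 kept it and its direction in every edgeR and DESeq2 setting that tested them, and the 13 others are named above with the alternatives that ended the call. No named gene changed sign among these settings. On the CPM scale, chosen after seeing the data, 4 named genes had the other sign: the difference of responses was 405 CPM for Pcyt2, 12.9 CPM for Ccnb1, 4.64 CPM for E2f2 and -32.9 CPM for Gsta1. Over all called genes, 3689 had the same sign on both scales and 70 did not. Across the settings 30 to 41 G2/M genes were lower, 8 to 17 sterol genes higher, 7 to 10 mesenchymal genes lower and 7 to 10 glutathione transferases higher. The 1 higher member of the SRF list, the 1 of the mesenchymal list and the 1 lower cytochrome P450 gene were not called under some alternatives. Depth limits the genes under 10 counts in a group, such as Wnt4 and Hal, and 2 libraries per group leave 4 residual degrees of freedom.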
